A study of Bos taurus with 9 samples.

Results

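The genes described here are 10 regulators of the step from G1 into S phase, namely the D cyclins CCND1, CCND2 and CCND3, the E cyclins CCNE1 and CCNE2, the CIP/KIP inhibitors CDKN1A, CDKN1B and CDKN1C, the pocket protein gene RB1 and the transcription factor gene E2F1. They were chosen by name, and all 10 were found among the 20679 genes of the deposited tables. Their RNA was measured in bovine uterine gland fragments, which had been isolated with collagenase from abattoir uteri in the luteal phase and cultured in 3D for 5 days. Without EGF in Matrigel the fragments formed cysts (CYST), with 5 ng/ml EGF in Matrigel they formed uterine gland-like (UG-LIKE) structures (MAT), and the last group had the same EGF in Matrigel with 0.5 mg/ml type I collagen (MAT + COL). Each group had 3 libraries, and all 3 groups shared a medium with bovine serum albumin, ascorbic acid, transferrin, selenite and insulin. Insulin was thus present in the controls as well. The doses are those of the study's text, because the sample labels give none.

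Passage through G1 is driven by cyclins, which switch on cyclin-dependent kinases. D cyclins are induced by growth factors and, with CDK4 or CDK6, start the phosphorylation of the retinoblastoma protein, encoded by RB1, so that E2F factors are released and induce the E cyclins and the genes of DNA replication. E cyclins then act with CDK2 at entry into S phase, while the CIP/KIP proteins p21 (CDKN1A), p27 (CDKN1B) and p57 (CDKN1C) restrain cyclin E with CDK2. The comparison of cultures with and without EGF asks at which of these steps the transcripts differed on day 5.

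Gene counts summed to 6568968 to 17948600 per library. The epithelial cell type of uterine glands was checked against 10 epithelial markers. All 10 had a TPM (transcript abundance scaled to a fixed total per library) above 1 in every library. Their summed TPM was 20200 to 22600 in CYST, 31900 to 49300 in MAT and 32400 to 43700 in MAT + COL. RNA of other cell types was present too. Of 9 endometrial stroma markers, 7 were above 1 TPM in every library. HAND2 had 3 counts in CYST, 0 in MAT and 1 in MAT + COL, over all libraries of a group. The summed TPM of the 9 markers was 2020 to 4570 in CYST, 755 to 3000 in MAT and 1900 to 3510 in MAT + COL. The corresponding sums were 118 to 169, 37.7 to 86.9 and 66.3 to 85.5 for 5 smooth muscle markers, 13.8 to 23.0, 8.60 to 44.3 and 15.7 to 41.4 for 6 endothelial markers, and 27.4 to 35.1, 20 to 49.7 and 28.6 to 33.1 for 9 immune markers. The sums of epithelial markers were thus higher and those of smooth muscle markers lower in all libraries with EGF than in CYST, while the other sums overlapped. KRT8 and KRT19 had the highest mean TPM of the epithelial markers, and single markers did not all follow the sums. In MAT against CYST, 4 of 10 epithelial markers were higher with no overlap in TPM (11.9% of all genes). Of 5 smooth muscle markers, 2 were lower in this way (11.8%). The mean TPM of CLDN4 was 852.1 in CYST and 709.5 in MAT, and that of MYH11 was 7.74 and 7.98. The part that cell types had in the results on G1 genes was not tested. In such bulk RNA, fewer cells of a type and less RNA per cell cannot be told apart.

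The levels of the 10 genes were compared by TPM, which is per transcript length. In each of the 9 libraries CCND3 or CCND1 was the most abundant of them, and E2F1 the least. The D cyclins made up 200.1 to 247.3 TPM together in CYST, 257.8 to 359.3 in MAT and 234.5 to 401.0 in MAT + COL. The E cyclins summed to 21.3 to 43.5 TPM in CYST, 6.08 to 18.2 in MAT and 10.7 to 12.2 in MAT + COL, and no library with EGF reached the lowest CYST library. The CIP/KIP inhibitors summed to 12.3 to 53.2, 19.7 to 64.6 and 20.7 to 60.1 TPM, and these ranges overlapped widely.

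**Figure D1:**
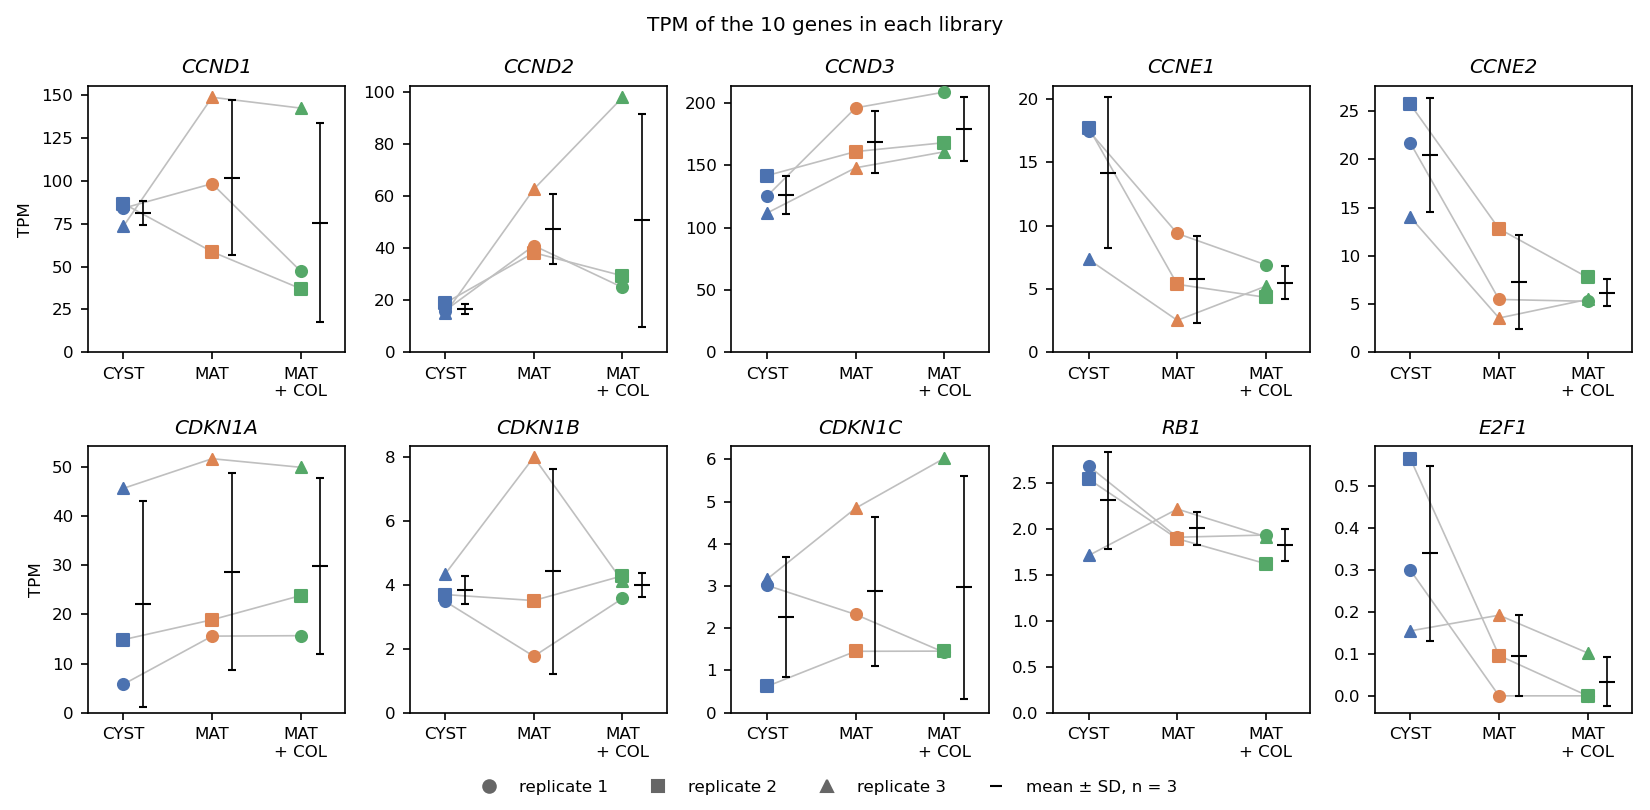
TPM of each of the 10 genes (vertical axis, own scale per panel) in CYST, MAT and MAT + COL libraries, with 1 symbol per replicate number, grey lines joining same-numbered libraries and black bars for the mean ± SD (n = 3). CCND2 and CCND3 lie higher with EGF, CCNE2 lies lower, and CDKN1A is highest in replicate 3 of every group.

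CCND2, a D cyclin that is induced by growth signals in many tissues, had the largest positive difference with EGF among the 10 genes (ENSBTAG00000016649, chromosome 5 from 105763364 to 105786234 of ARS-UCD2.0, minus strand). Its TPM was 16.1, 18.9 and 14.9 in CYST replicates 1 to 3, 41.0, 38.3 and 62.7 in MAT, and 24.9, 29.4 and 97.9 in MAT + COL. All 6 libraries with EGF were above all 3 CYST libraries, and MAT + COL replicate 3 stood far above the other two of its group. The log2 fold change (Log2FC) of MAT over CYST was 1.51 (standard error, SE, 0.30, 95% interval 0.82 to 2.20). Its adjusted p was 0.0516 in the quasi-likelihood test of edgeR, and 0.0194 once the replicate number entered as a block (the paired or blocked fit), so that CCND2 rose in the paired fit and just missed the 0.05 threshold in the unpaired one. Without the filter on low counts, the unpaired adjusted p of edgeR was 0.0462, and DESeq2, also unpaired, gave 0.000414. MAT + COL against CYST gave a Log2FC of 1.60 (SE 0.57, edgeR adjusted p 0.163), or 1.25 when blocked (adjusted p 0.136). It was 0.60 without MAT + COL replicate 3 and 1.95 without replicate 1 of that group. In an edgeR fit of all 9 libraries, the adjusted p was 0.119 without the block. CCND2 passed with the block (adjusted p 0.0415), in a fit that was added after the data had been seen. CCND2 was higher than in the same-numbered CYST library in 3 of 3 pairs in both comparisons.

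CCND3 (ENSBTAG00000010106, chromosome 23 from 15698661 to 15705587, minus strand) was the D cyclin with the highest TPM in 8 of the 9 libraries. It had a TPM of 125.2, 141.7 and 111.6 in CYST, 196.0, 160.9 and 147.9 in MAT, and 208.7, 168.1 and 160.8 in MAT + COL. The lowest library with EGF lay above the highest CYST library. The difference was small, at a Log2FC of 0.41 (SE 0.17) in MAT and 0.44 (SE 0.14) in MAT + COL against CYST. The edgeR adjusted p-values were 0.221 and 0.138, or 0.170 and 0.134 when blocked. The fit of all 9 libraries without the block gave adjusted p-values of 0.105 and 0.1. With the block, a fit added after the data had been seen, they were 0.0542 and 0.0499. Only in this last fit was CCND3 called, in MAT + COL and just under the threshold.

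CCND1, the cyclin best known as a target of growth factor signaling, did not separate the groups (ENSBTAG00000017514, chromosome 29 from 46888664 to 46901025, plus strand). Its TPM was 84.0, 86.7 and 73.5 in CYST, 98.3, 58.6 and 148.7 in MAT, and 47.3, 37.1 and 142.4 in MAT + COL. The CYST libraries were close together, whereas the libraries with EGF lay on both sides of them. The Log2FC of MAT against CYST was 0.33 (SE 0.32, 95% interval -0.42 to 1.07, edgeR adjusted p 0.623). That of MAT + COL against CYST was -0.13 (SE 0.51, edgeR adjusted p 0.916). Single libraries set these directions. The first Log2FC was -0.09 without MAT replicate 3. The second was -1.07 without MAT + COL replicate 3 (adjusted p 0.0431), 0.16 without replicate 1 and 0.18 without replicate 2 of that group. The interval of CCND1 lies within that of LTO1 in the RefSeq annotation, and the strand setting of the counting is not given in the sources used here, so reads of the 2 genes could have been assigned to either.

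The E cyclins, which act with CDK2 at the start of DNA replication, were lower with EGF. CCNE2 (ENSBTAG00000004906, chromosome 14 from 69448097 to 69460870, plus strand) had a TPM of 21.7, 25.7 and 14.01 in CYST, 5.48, 12.8 and 3.56 in MAT, and 5.29, 7.76 and 5.48 in MAT + COL. Each library with EGF was below each CYST library. In MAT against CYST its Log2FC was -1.47 (SE 0.46, 95% interval -2.54 to -0.41), and the edgeR adjusted p was 0.126, or 0.0232 when blocked. For MAT + COL against CYST, CCNE2 fell by 1.76 on the log2 scale (SE 0.28, edgeR adjusted p 0.0383, blocked 0.0251). This was the only one of the 27 comparisons of a single G1 gene that passed in edgeR without the block. It did not pass when any 1 of the 6 libraries was left out (edgeR adjusted p 0.0502 to 0.155). The last bases of CCNE2 overlap INTS8 in the RefSeq annotation.

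CCNE1 (ENSBTAG00000004735, chromosome 18 from 40423577 to 40435543, plus strand) had a TPM of 17.5, 17.7 and 7.34 in CYST, 9.39, 5.37 and 2.53 in MAT, and 6.90, 4.34 and 5.23 in MAT + COL. CYST replicate 3 was lower than MAT replicate 1, so that CYST and MAT overlapped, and the MAT + COL libraries were all below the CYST libraries. Within same-numbered libraries CCNE1 was lower with EGF in 3 of 3 pairs, in MAT and in MAT + COL. MAT against CYST gave a Log2FC of -1.30 (SE 0.50, edgeR adjusted p 0.191), or -1.39 when blocked (adjusted p 0.0324). MAT + COL against CYST gave -1.40 (SE 0.35, edgeR adjusted p 0.0791, blocked 0.0678). The edgeR fit of all 9 libraries gave an adjusted p of 0.112 without the block. With the block, in a fit added after the data had been seen, it was 0.0323. Both E cyclins thus fell in MAT in the paired fit of edgeR and not in its unpaired one. DESeq2, also unpaired, gave adjusted p-values of 0.0245 for CCNE2 and 0.0844 for CCNE1 in MAT against CYST.

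The CIP/KIP inhibitors differed between replicate numbers more than between groups. CDKN1A, which differentiation signals are known to induce, had the highest TPM of the 3 in every library (ENSBTAG00000008353, chromosome 23 from 10573490 to 10588885, plus strand). Its TPM was 5.77, 14.9 and 45.7 in CYST, 15.6, 18.9 and 51.7 in MAT, and 15.7, 23.8 and 50.0 in MAT + COL. Replicate 3 was the highest and replicate 1 the lowest in all 3 groups, and the groups overlapped. The Log2FC of MAT against CYST was 0.28 with a 95% interval from -1.60 to 2.16 (edgeR adjusted p 0.884), and the block gave 0.57 (SE 0.36, adjusted p 0.341). The log2 ratios of TMM-normalized CPM in same-numbered libraries were 1.41, 0.44 and -0.0034 for MAT over CYST, in replicates 1, 2 and 3. Without CYST replicate 1 the Log2FC was -0.14, and without MAT replicate 3 it was -0.50, so no direction could be given to CDKN1A.

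CDKN1B and CDKN1C were expressed at a few TPM. CDKN1B (ENSBTAG00000018254, chromosome 5 from 97104365 to 97109547, minus strand), whose protein is controlled to a large extent by degradation, had a TPM of 3.48, 3.69 and 4.34 in CYST, 1.76, 3.51 and 7.99 in MAT, and 3.57, 4.28 and 4.10 in MAT + COL. The MAT libraries spread around the other two groups. Its Log2FC of MAT against CYST was 0.21 (SE 0.59), and -0.014 when blocked. CDKN1C, an imprinted gene in mammals (ENSBTAG00000031184, chromosome 29 from 48711832 to 48730917, plus strand), had a TPM of 3.02, 0.621 and 3.16 in CYST, 2.33, 1.45 and 4.84 in MAT, and 1.43, 1.46 and 6.02 in MAT + COL, from 8 to 78 counts per library. Replicate 3 was again the highest of each group. Its Log2FC of MAT against CYST was 0.31 (SE 0.82). The edgeR adjusted p-values of CDKN1B and CDKN1C were 0.884 and 0.870 for MAT, and 0.980 and 0.867 for MAT + COL, against CYST. In MAT against CYST their 95% intervals ran from -1.17 to 1.58 and from -1.58 to 2.20 on the log2 scale. The deposited interval of CDKN1C begins far upstream of the RefSeq gene, which starts at 48728495, and its upstream end overlaps SLC22A18.

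RB1 (ENSBTAG00000006640, chromosome 12 from 18118566 to 18238934, plus strand) had a TPM of 2.69, 2.55 and 1.71 in CYST, 1.91, 1.90 and 2.22 in MAT, and 1.94, 1.62 and 1.92 in MAT + COL. CYST replicate 3 was below all MAT libraries, whereas the other 2 CYST libraries were above them. The Log2FC was -0.19 (SE 0.36) in MAT and -0.39 (SE 0.34) in MAT + COL against CYST, and the edgeR adjusted p-values were 0.812 and 0.551. An intron of RB1 holds LPAR6 in cattle as in other mammals, and the RefSeq interval of LPAR6 lies inside that of RB1.

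E2F1 (ENSBTAG00000003971, chromosome 13 from 63127906 to 63138529, minus strand), an activator of the genes of S phase entry, had few counts. Whether reads of E2F1 were lost in mapping or annotation was not tested. It had 3, 11 and 2 counts in CYST, 0, 2 and 3 in MAT, and 0, 0 and 2 in MAT + COL, and did not pass the filter on low counts. Its TPM was 0.300, 0.566 and 0.155 in CYST, and at most 0.192 in the libraries with EGF. Over each group, 16 counts in CYST against 5 in MAT gave a share of all counts that was 3.40-fold higher in CYST (exact 95% interval 1.19 to 11.9), and against 2 counts in MAT + COL it was 11.9-fold higher (2.80 to 107). These intervals cover counting error only and not the spread between cultures, and 11 of the 16 CYST counts came from replicate 2. With all genes kept in the fit, edgeR gave E2F1 adjusted p-values of 0.583 for MAT and 0.340 for MAT + COL against CYST, so that the difference, although outside counting error, did not pass against the spread between cultures.

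**Figure D2:**
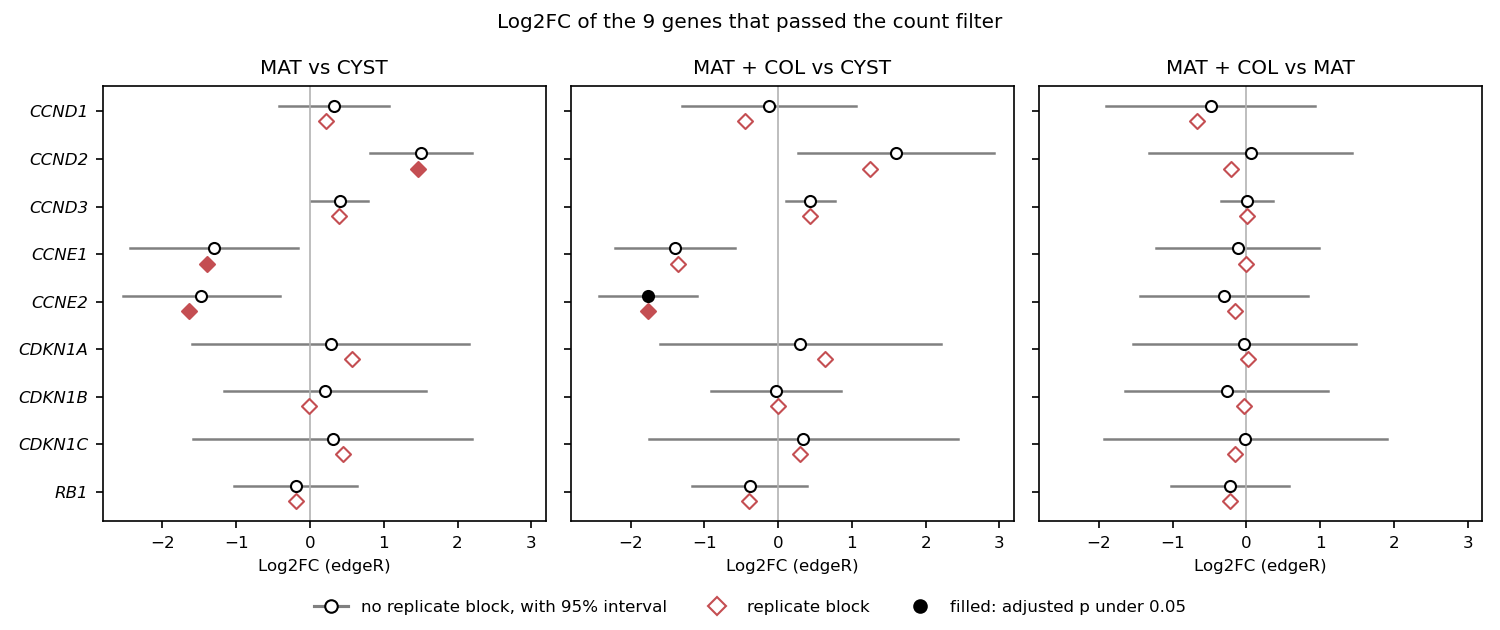
Log2FC (horizontal axis) of the 9 genes left after low counts were filtered out, in the 3 comparisons. Circles with grey 95% intervals are the fit without a replicate block, red diamonds are the fit with it, and filled symbols have an adjusted p under 0.05: CCNE2 in MAT + COL vs CYST in both fits, and CCND2, CCNE1 and CCNE2 in MAT vs CYST with the block.

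Between MAT and CYST, 0 of the 9 tested members had an adjusted p under 0.05 in the fit without the block (edgeR), where 1.79% of all 12074 genes tested did. At an unadjusted p under 0.05 there were 4 of the 9, CCND2, CCND3, CCNE1 and CCNE2, against 20.7% of all genes. With the block, 3 of the 9 passed, where 10.6% of all genes did. Of these CCND2 rose (4.90% of all genes) and CCNE1 and CCNE2 fell (5.67%). DESeq2 called 2, CCND2 and CCNE2, where it called 10.6% of all genes. The TPM of the groups did not overlap for 2 members that were higher (11.9% of all genes) and 1 that was lower (11.8%). For MAT + COL against CYST, 1 of 9 members passed without the block, where 1.49% of all 12509 genes tested did, and 1 with it (5.26%). It was CCNE2 in both fits, which fell as did 0.815% and 2.58% of all genes. At an unadjusted p under 0.05 there were again CCND2, CCND3, CCNE1 and CCNE2 (21.7% of all genes), and DESeq2 called CCND2, CCNE1 and CCNE2, where it called 12.0% of all genes. CCND2 and CCND3 were higher (14.3% of all genes) and both E cyclins lower (10.3%) with no overlap in TPM. Both comparisons use the same CYST libraries, so that their results are not independent of each other.

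Added collagen I was compared with Matrigel alone in the presence of EGF. None of the 9 tested members differed between MAT + COL and MAT at an adjusted p under 0.05 in edgeR, where 0.00% of the 12470 genes tested did with or without the block, and 0 of the 9 had an unadjusted p under 0.05 (0.409% of all genes). DESeq2 also called 0, and no member had groups that did not overlap in TPM (3.57% of all genes). The narrowest interval was that of CCND3, with a Log2FC of 0.01 and a 95% interval from -0.34 to 0.36. For CCND1, the TPM was lower with collagen I in 3 of 3 same-numbered pairs, from 98.3 to 47.3, from 58.6 to 37.1 and from 148.7 to 142.4. Its Log2FC was -0.48 (SE 0.60) without the block and -0.66 (SE 0.17) with it, where the unadjusted p was 0.00308 and the adjusted p 0.955 (edgeR). Without the block, it was -0.063 when MAT replicate 3 was left out and -1.40 when MAT + COL replicate 3 was. With the block, 4.96% of all genes had an unadjusted p under 0.05. The intervals of the inhibitors were wide, from -1.54 to 1.49 for CDKN1A and from -1.93 to 1.91 for CDKN1C, so that changes of 2-fold in either direction lay within them.

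The make-up of each family was compared as the share of each gene in the summed TPM. CCND1 made up 36.4% ± 1.16 (SD, n = 3) of D cyclin TPM in CYST, 31.1% ± 9.46 in MAT and 22.7% ± 11.1 in MAT + COL. The difference of -5.23 percentage points between MAT and CYST was -1.02 without MAT replicate 2 and -10.3 without MAT replicate 3. CCND2 made up 7.13%, 7.65% and 7.45% in the CYST libraries, 12.2%, 14.8% and 17.4% in MAT, and 8.88%, 12.5% and 24.4% in MAT + COL. The CYST libraries were thus nearly uniform in their D cyclin make-up, and every library with EGF had a larger share of CCND2 (exact permutation test, two-sided, p = 0.1 for either comparison, the smallest that 3 against 3 allow). The share of CCND2 was singled out after its values were seen. The share of CCNE1 in E cyclin TPM was 40.0% ± 5.21 in CYST, 44.7% ± 17.0 in MAT and 47.1% ± 10.5 in MAT + COL (SD, n = 3). CDKN1A made up 47.1%, 77.5% and 85.9% of CIP/KIP TPM in CYST, between 79.2% and 80.1% in MAT and between 75.8% and 83.2% in MAT + COL. For the shares of CCND1, CCNE1 and CDKN1A, the exact permutation p-values of the 9 comparisons were between 0.2 and 0.9, and 0.9 after adjustment.

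**Figure D3:**
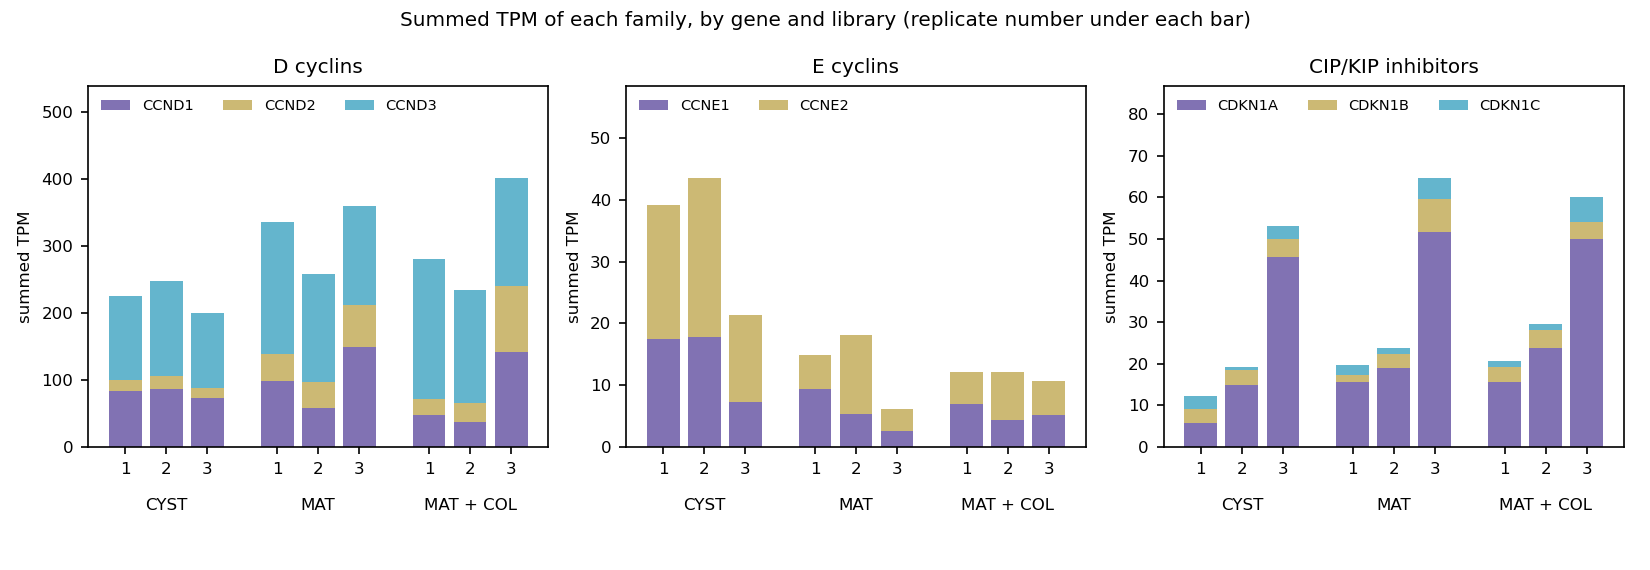
Summed TPM (vertical axis) of D cyclins, E cyclins and CIP/KIP inhibitors in each library, with the replicate number under each bar and the genes of a family stacked in colours. E cyclin bars are tallest in CYST, from 21.3 to 43.5 TPM, and CIP/KIP bars are tallest in replicate 3 of each group.

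The variation of each gene over the 9 libraries was split into a part between groups and a part between replicate numbers, on log2 CPM and without a test. Groups accounted for 77.6% of the sum of squares of CCND3, 74.6% of CCNE2, 61.9% of CCNE1, 59.7% of RB1 and 54.9% of CCND2, where the median of the 12858 genes was 29.5%. For the inhibitors, by contrast, replicate numbers accounted for most of it, with 84.4% for CDKN1A, 78.8% for CDKN1C and 61.1% for CDKN1B, where the median gene had 32.4%. CCND1 was on the side of the inhibitors, with 53.7% between replicate numbers and 17.0% between groups. RB1 varied little in all, from 1.62 to 2.69 TPM.

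**Figure D4:**
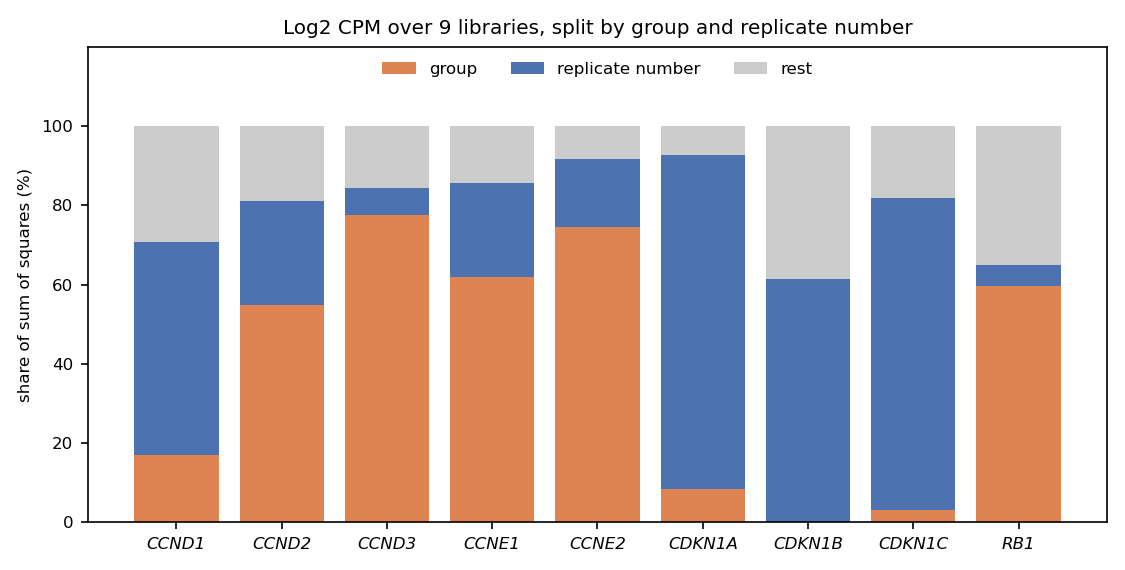
Share of the sum of squares of log2 CPM over the 9 libraries (vertical axis, %) that lies between groups (orange), between replicate numbers (blue) and in the rest (grey), for the 9 genes that passed the count filter. Blue is the larger part for CCND1 and the 3 CIP/KIP inhibitors, and orange for the others.

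Other genes of the G1/S step were read from lists chosen by their known roles. The list called G1 kinases held 7 genes, for the kinases, the complex that activates them and the phosphatase CDC25A. Of these 7 genes, 0 passed in MAT against CYST without the block (1.79% of all genes) and 1 fell with it (5.67%). This was CDK2, the partner of the E cyclins, whose TPM was 30.5 to 40.2 in CYST and 17.7 to 23.7 in MAT, at a Log2FC of -0.83 (SE 0.21, edgeR adjusted p 0.0761, blocked 0.0389). CDK4, a partner of the D cyclins, had a Log2FC of -0.42 (SE 0.16, edgeR adjusted p 0.185). The mean TPM of CDK6, their other partner, was 4.47 in CYST and 6.41 in MAT. Of the 7 genes, 3 had a positive and 4 a negative Log2FC (median -0.25). Among all 12074 genes tested, 6137 were positive and 5937 negative. Of the INK4 inhibitors of CDK4 and CDK6, 2 of 4 were tested and 0 passed, and their directions differed. CDKN2C had a Log2FC of -1.61 (SE 0.63, edgeR adjusted p 0.202, blocked 0.224), from 4 to 34 counts per library. CDKN2D had a Log2FC of 0.43, with a mean TPM of 10.3 in CYST and 14 in MAT.

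Among 11 genes for relatives of RB1 and E2F1 and their partners, 9 were tested. Of these, 8 had a negative Log2FC, as did 5937 of all 12074 genes tested. The list median was -0.51, beside 0.01 over all genes tested. None passed without the block (1.79% of all genes). With it, E2F4 and E2F8 fell (5.67% of all genes). E2F4, a repressor in quiescent cells, was the most abundant E2F gene, with 43.4 to 63.8 TPM in CYST and 27.4 to 33.2 in MAT, and a Log2FC of -0.87 (SE 0.18, edgeR adjusted p 0.0567, blocked 0.0258). E2F8, a repressor that is itself induced in S phase, had a Log2FC of -1.69 (SE 0.50, edgeR adjusted p 0.111, blocked 0.0392).

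Genes that E2F factors are known to induce at the G1/S step had lower values throughout. All 19 tested genes of this list had a negative Log2FC in MAT against CYST, with a median of -1.42, and 8 fell without the block and 17 with it, where 0.944% and 5.67% of all genes were called lower. The 3 with the smallest p were MCM5, MCM2 and MCM3, subunits of the replicative helicase, with Log2FC of -1.87, -1.66 and -1.71 and adjusted p-values of 0.0165, 0.0403 and 0.0403 (edgeR). Of 14 mitotic genes, all had a negative Log2FC, with a median of -1.26, and 2 fell without the block, the mitotic kinase genes AURKB and PLK1, and 7 with it. In MAT + COL against CYST, 8 of the 19 E2F targets and 0 of the 14 mitotic genes fell without the block, and 11 and 0 with it. Of all genes, 0.815% were called lower there without the block and 2.58% with it. Since the lists were chosen with results of these libraries known, their counts are no independent evidence of a direction.

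Few genes of the other lists given here passed. Of 11 tested ubiquitin ligase genes, only DTL, whose ligase degrades p21 in S phase, passed when blocked in MAT against CYST (Log2FC -1.81, SE 0.45, edgeR adjusted p 0.0772, blocked 0.0214). Of all genes, 10.6% passed in that fit. In MAT + COL, DTL fell in both fits (Log2FC -1.75, SE 0.28, adjusted p 0.0383, blocked 0.0342), where 0.815% and 2.58% of all genes did. SKP2, whose ligase degrades p27, had a Log2FC of -1.03 in MAT (SE 0.35, edgeR adjusted p 0.151). These genes do not stand for the list. Its median Log2FC of MAT against CYST was -0.06, with 5 positive and 6 negative values among the 11 genes. None of the 7 tested genes of the MuvB complex and its partners passed in either fit, and RBBP4 had the smallest p, with a Log2FC of -0.38 (SE 0.16, edgeR adjusted p 0.245). Of 8 tested genes linked to quiescence, 7 had positive values (median Log2FC 0.78), as did 6137 of all 12074 genes tested. FOXO1 had the negative value (Log2FC -1.02), with 45.8 to 112.8 TPM in CYST and 32.3 to 54.6 in MAT. When blocked, 1 gene of this list rose (4.90% of all genes). This was KLF6, a zinc finger factor that can induce CDKN1A, with 70.9 to 96.9 TPM in CYST and 134.7 to 208.3 in MAT and a Log2FC of 1.00 (SE 0.24, edgeR adjusted p 0.0719, blocked 0.0251). None of the list genes passed between MAT + COL and MAT in either fit.

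**Figure D5:**
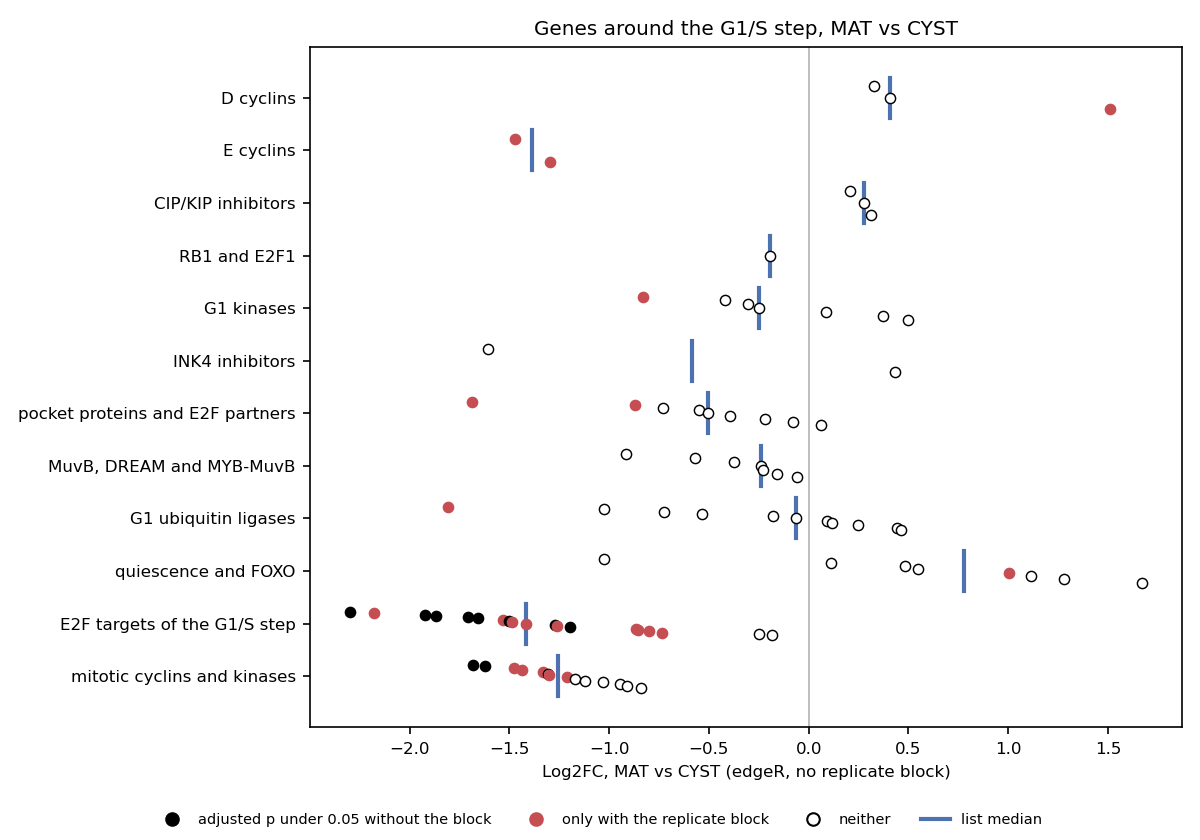
Log2FC of MAT vs CYST (horizontal axis) for each tested gene of each list (rows), with blue bars at list medians. Black points have an adjusted p under 0.05 without the replicate block, red points only with it, and open points in neither fit. E cyclins, E2F targets and mitotic genes lie below 0, and the 3 D cyclins and 3 CIP/KIP inhibitors above it, although CCND1 and the inhibitors change sign when MAT replicate 3 is left out.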

How the data were processed

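RNA-seq was performed on 9 libraries (SMART-Seq HT PLUS, paired-end), 3 per group, and the titles gave group and replicate number. With CLC Genomics Workbench the authors trimmed and mapped reads (genome ARS-UCD2.0) and deposited counts per gene without normalization, and TPM values of the same genes. The annotation release and strand setting are not given in the sources used here. All sample columns were used.

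edgeR 4.0.16 (R 4.3.3) was used for the counts. Genes passing filterByExpr (minimum count of 10) were normalized by TMM and tested with its quasi-likelihood functions, using 6 libraries per comparison and adjusting p over all genes tested by Benjamini-Hochberg. Genes were called at an adjusted p under 0.05. Standard errors were derived from the F statistic. The replicate number was a block in an alternative fit. Across genes, the residuals from group means of libraries with 1 number correlated at 0.279 to 0.69 in all pairs, so the numbers were taken to pair the libraries, although the labels do not say what they mark, and the numbers within the deposited library names differ from them. What the block stands for is thus not known. The labels do not say whether replicates came from separate animals. The study's text states that MAT and MAT + COL samples clustered mainly by individual, but not which libraries share an individual. The p-values are thus stated for the spread between these cultures, whatever its source.

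Alternatives were DESeq2 1.42.0, RLE size factors, no filter, all 9 libraries in 1 fit, limma 3.58.1 on log2(TPM + 1) and leaving out each library. The fit of all 9 libraries with the block was added after the data had been seen. The scripts were tested on simulated counts. The members and lists were chosen with earlier results of these data known. The genes named were all 10 members, from each list the genes that passed (at most the 3 smallest p per direction) or else the smallest p, and for each member tested in MAT against CYST the 3 genes with the highest Pearson r. CDK4, E2F8 and SKP2 were added for their roles after their values were seen. CDK6, CDKN2D and FOXO1 were also added then, because they went the other way from genes named beside them. Of 139 list genes, 136 were found by symbol and 3 were not analysed here. The results of 1 list and of 1 further gene are not reported here. Intervals from counts cover counting error only. Figures were drawn with matplotlib 3.10.9.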

Additional observations from a re-analysis of the deposited data

How the results depend on the processing

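For MAT against CYST, 216 genes were called without the block, 1277 with the replicate block, 1278 with DESeq2, 580 with all 9 libraries in the fit, 2118 with all 9 libraries and the block, and 5 to 267 with 1 library left out. The number of members called was 0, and 3 with the replicate block, 3 with all 9 libraries and the block, 2 with DESeq2, 1 without the filter on low counts and 1 with limma on log2(TPM + 1), which was CCND2 in these last 2 fits, and 0 with 1 library left out. For MAT + COL against CYST, 186 genes were called without the block, 658 with it, 1500 with DESeq2, 601 with all 9 libraries, 2035 with all 9 libraries and the block, and 3 to 186 with 1 library left out. The number of members called was 1, and 3 with DESeq2, 0 with all 9 libraries, 0 with limma, 4 with all 9 libraries and the block (CCND2, CCND3, CCNE1 and CCNE2), and 0 to 1 with 1 library left out. The cause was not tested. In the fits of 6 libraries, the replicate block changed the call of CCND2, CCNE1 and CCNE2 in MAT against CYST and of no other member. In the fit of all 9 libraries it changed these 3 calls, and those of CCND2, CCND3, CCNE1 and CCNE2 in MAT + COL against CYST.

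Directions of CCND2, CCND3, CCNE1, CCNE2 and RB1 against CYST held in every fit. The Log2FC of CDKN1B in MAT against CYST was -0.014 with the replicate block and -0.0014 with limma, and in MAT + COL against CYST it was 0.0449 with limma and 0.0326 with all 9 libraries and the block. With 1 library left out, MAT against CYST ranged from -0.0907 to 0.61 for CCND1, -0.50 to 1.58 for CDKN1A, -0.57 to 0.64 for CDKN1B and -0.36 to 0.79 for CDKN1C, and MAT + COL against CYST from -1.07 to 0.18, -0.37 to 1.59, -0.12 to 0.20 and -0.79 to 0.82. For collagen I, where no member was called in any fit, signs also turned. The replicate block gave CCND2 -0.20 and CDKN1A 0.0256, limma gave CCND2 -0.14, CCNE1 0.0577, CDKN1A 0.0928 and CDKN1B 0.0463, and all 9 libraries with the block gave CCND2 -0.15, CCNE1 0.021 and CDKN1A 0.0373. With 1 library left out, the ranges were -1.40 to -0.063 for CCND1, -0.92 to 0.41 for CCND2, -0.0504 to 0.11 for CCND3, -0.47 to 0.38 for CCNE1, -0.63 to 0.39 for CCNE2, -0.67 to 0.77 for CDKN1A, -0.64 to 0.53 for CDKN1B and -1.12 to 0.67 for CDKN1C. The difference in the share of CCND1, in percentage points, then ranged from -10.3 to -1.02 in MAT against CYST, -14.8 to -3.31 in MAT + COL against MAT and -20.1 to -10.2 in MAT + COL against CYST. That of CCNE1 ranged from -4.43 to 12.4 in MAT against CYST and -5.23 to 11.6 in MAT + COL against MAT, and that of CDKN1A from -2.19 to 17.2, -1.31 to 2.36 and, in MAT + COL against CYST, -1.85 to 17.6. Counts of E2F1, CDKN1C, CDKN1B and RB1 did not exceed 118 in any library, which limits their precision.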

Other observations

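The genes whose log2 CPM followed a member most closely over the 9 libraries, among 12857 genes, are given as a description, since all r share the same libraries, groups and replicate numbers. There are 3 for each member that passed the filter on low counts, except for CCND2 with 2. E2F1 did not pass it and was left out. For CCND2 they were MICAL1 and ZBTB34 (Pearson r = 0.970 and 0.964), and for CCND3 they were ADGRG2, SPSB2 and ADAM15 (r = 0.980, 0.979 and 0.977). CCND1 was followed by KCNRG, FXR2 and PLK3 (r = 0.967, 0.957 and 0.947). For CCNE1 they were SNRNP25, PDE12 and SF3B5 (r = 0.980, 0.980 and 0.978), which include 2 genes for parts of the splicing machinery, and for CCNE2 they were POLD1, YWHAB and HMGN1 (r = 0.981, 0.972 and 0.971), where POLD1 encodes the catalytic subunit of a replicative DNA polymerase. CDKN1A was followed by RSRP1, AGPAT1 and CHST15 (r = 0.987, 0.983 and 0.979), CDKN1B by SWI5, B4GALT5 and DDI2 (r = 0.939, 0.936 and 0.923), CDKN1C by SEMA3A, WWTR1 and CSPG5 (r = 0.967, 0.958 and 0.953), and RB1 by FRMD6, COX7A2 and H6PD (r = 0.974, 0.953 and 0.953).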
